A study of Mus musculus with 7 samples.

Results

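The glycerophospholipid and triglyceride synthesis pathway was followed in P14 optic nerves as 38 genes chosen by symbol, from the acylation of glycerol 3-phosphate to the finished phospholipids and triglyceride. All 38 had 1 row each among the 22880 genes of the deposited table, and all 38 passed the filter on low values. The 7 samples were 4 from control mice (CT) and 3 from mutants (cMU), all of C57Bl/6 background and 14 days old, and each held both nerves of 1 animal. The labels give FASN lox/lox for both groups, although the study's methods name Fasn lox/wt mice among its controls too, and olig2cre for cMU alone, in which Olig2 regulatory elements drive Cre recombinase in the oligodendrocyte (OL) lineage. Presence of Cre and loss of Fasn cannot be told apart in this comparison. Values are FPKM, fragments scaled by transcript length and library size, so levels of different genes can be set side by side.

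Fatty acid synthase (Fasn) builds palmitate, a saturated fatty acid that enters membrane lipids once it is joined to coenzyme A. Acyl chains are added to glycerol 3-phosphate and then to lysophosphatidic acid to give phosphatidic acid, which is either dephosphorylated by lipins to diacylglycerol or activated to CDP-diacylglycerol. Diacylglycerol receives CDP-choline or CDP-ethanolamine to form phosphatidylcholine and phosphatidylethanolamine, or another acyl chain to form triglyceride, and lysophospholipid acyltransferases later exchange acyl chains in the finished phospholipids. Myelin is a membrane rich in lipid, with ethanolamine plasmalogens, cholesterol and galactolipids among its main components.

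Fasn itself stood at 210, 169, 211 and 228 FPKM in the CT samples and at 69.3, 50.5 and 49.0 FPKM in the cMU samples. No cMU sample reached the lowest CT sample, as the labels state for the genotype. Its log2 fold change, cMU over CT, was -1.86 ± 0.138 (SE), with an adjusted p of 0.00312 by limma. Across the 13866 genes tested, 363 passed an adjusted p of 0.05 (2.62%, with 175 higher and 188 lower in cMU, or 1.26% and 1.36%), and the median log2 fold change was 0.05. The share of higher genes among those called was 48.2%, and it was 38.6% with samples rescaled to their median ratio, 33.4% after quantile normalization and 27.7% with normalized counts. With the replicate number as a block, 1159 genes passed (890 higher and 269 lower, or 6.42% and 1.94%), and the count ran from 6 without CT3 or without cMU3 to 909 without cMU2 when 1 sample was left out. An estimated 27453965 to 43456259 reads lay behind each sample.

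The nerves also differed in the RNA of the cells they hold. Summed FPKM of 10 OL markers was 68.1% to 87.3% of the CT mean in cMU and 93.6% to 106% in CT, and the log2 fold change of all 10 was negative, with Mag and Cnp past the threshold (neither with the replicate number as a block). Summed markers listed for OL progenitors reached 76.1% to 85.4% of the CT mean in cMU. Gpr17 was the most abundant gene of this sum, with means of 241 FPKM in CT and 164 FPKM in cMU. The study counts Gpr17 among transcripts enriched in myelin-forming OLs, so the sum does not stand for progenitors alone. Of the 6 progenitor markers, 4 had negative log2 fold changes, with Gpr17 and Cspg4 past the threshold, whereas Ptprz1 and Bmp4 had positive ones (0.08 and 0.16) and Pdgfra was at -0.14 (adjusted p = 0.537 by limma). Summed markers of astrocytes reached 119% to 146%, with 8 of 8 astrocyte markers higher and 4 of them past the threshold (Aldh1l1, Slc1a2, Gja1 and Aldoc). Positive log2 fold changes were also found for all tested markers of microglia, endothelial and mural cells, meningeal fibroblasts, neurons, Schwann cells and skeletal muscle. Of all genes tested, 60.1% were positive. Markers of meningeal fibroblasts stood at 212% of the CT mean in cMU1 and at 111% and 127% in the other cMU samples (0 of 8 past the threshold by limma, 5 at an unadjusted p under 0.05, and 6 with the block), and skeletal muscle markers were summed to 69.6 FPKM in cMU2 and to at most 5.01 FPKM elsewhere. Red blood cell markers were highest in CT2, at 216% of the CT mean. Summed markers of endothelial and mural cells reached 119% to 125% of the CT mean in cMU (87.8% to 113% in CT) and those of microglia 107% to 120% (94.2% to 114% in CT), while neuron markers stood at 199% in cMU3 (40.1 FPKM) and at no more than 122% in any other sample, and Schwann cell markers at 169% in cMU1 (13.2 FPKM) and at no more than 134% elsewhere. In bulk tissue, fewer cells of a type and less RNA per cell cannot be told apart, and the part of these shifts in the values of the pathway was not tested. Of 8 adipocyte markers, Lep and Ucp1 were at 0 in every sample and the sum of all 8 was at most 0.715 FPKM.

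**Figure D1:**
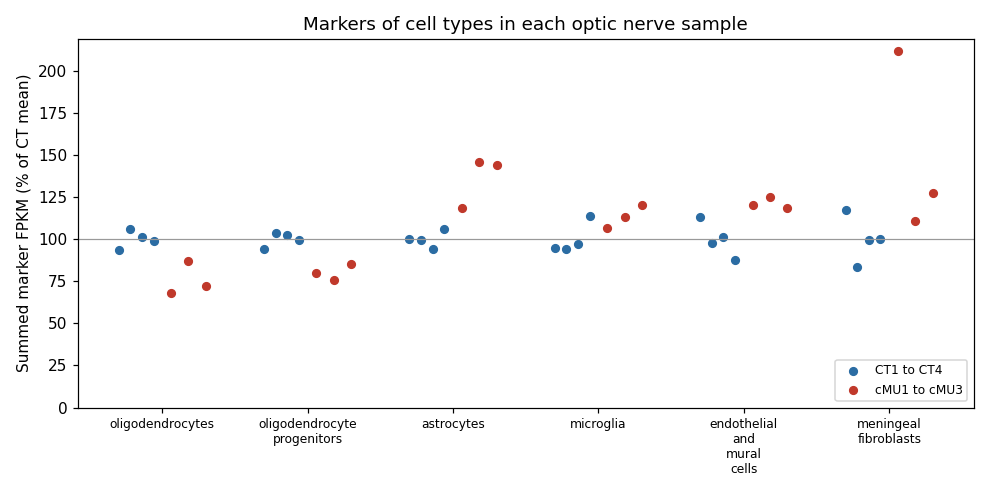
Summed FPKM of marker genes of 6 cell types in each sample, as a percentage of the CT mean, with CT samples in blue and cMU samples in red in the order of their numbers. OL markers sit below all CT samples in the 3 cMU samples, astrocyte markers sit above them, and the meningeal fibroblast sum of cMU1 stands at 212%.

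Of the 38 genes, 1 passed the threshold, Lpcat1, which was higher in cMU, so the share called was 2.63% against 2.62% of all genes tested (1.26% higher and 1.36% lower). No member was called lower by limma, with 5 of 38 lower at an unadjusted p under 0.05. At that unadjusted p, 14 of 38 members differed (36.8%, against 24.4% of all genes), 9 of them higher and 5 lower (against 15.9% and 8.50% of all genes). Control and mutant samples did not overlap for 10 of 38 genes (26.3%, against 21.1% of all genes). Of these, 7 were higher in cMU (18.4% against 12.9%) and 3 lower (7.89% against 8.26%). The median log2 fold change of the 38 genes was 0.05, the same to 2 decimals as that of all genes. Of the 38, 23 were positive (60.5%, against 60.1% of all genes). With the replicate number as a block, 2 of 38 passed (5.26%, against 8.36% of all genes, 6.42% higher and 1.94% lower), Lpcat1 and Etnk2. With array weights, which let samples differ in precision, 11 of 38 passed (28.9%, against 11.0% of all genes). Leaving out CT1, CT2, CT3, CT4 or cMU3 left no member past the threshold, in fits where 0.0434% to 0.863% of all genes passed. Without CT4 the genes that did not overlap numbered 17 (44.7%, against 28.1% of all genes with the same samples), and without cMU2 they numbered 19 (50%, against 37.3%). Without cMU3 the members at an unadjusted p under 0.05 numbered 9 (23.7%, against 20.1%).

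**Figure D2:**
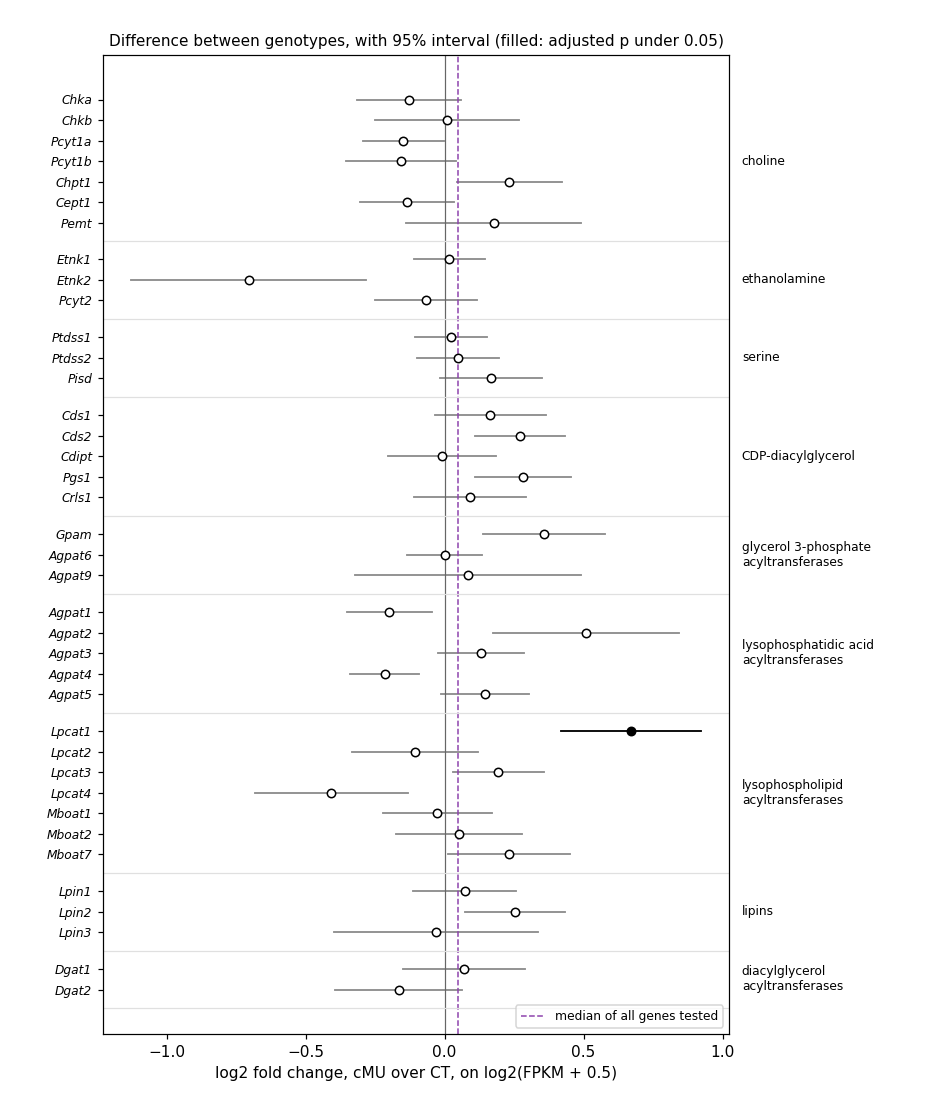
Log2 fold change of each of the 38 genes, cMU over CT, on log2(FPKM + 0.5), with its 95% interval and grouped by branch. The filled point marks Lpcat1, at 0.67, the gene past an adjusted p of 0.05, and the dashed line is the median of all genes tested, 0.05.

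Upstream sequence is shown for Lpcat1, the member called in the comparison, and for Etnk2, the member called in addition once replicate numbers were blocked. Lpcat1 lies on chromosome 13, from 73467197 to 73516422 on the plus strand of GRCm38. Etnk2 lies on chromosome 1, from 133363572 to 133380336 on the plus strand. The windows are from RefSeq on GRCm38.p6, chr13:73466981-73467196 for Lpcat1 and chr1:133363322-133363571 for Etnk2, 5′ to 3′ on the plus strand, and each ends at the base before the gene start of the deposited table. Capitals mark the letters GGGCGG on either strand, including a pair of overlapping matches in Etnk2.
Lpcat1: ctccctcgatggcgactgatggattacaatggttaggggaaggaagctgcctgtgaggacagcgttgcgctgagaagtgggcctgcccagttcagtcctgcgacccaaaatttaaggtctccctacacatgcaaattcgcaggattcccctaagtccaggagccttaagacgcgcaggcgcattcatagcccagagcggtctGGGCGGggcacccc
Etnk2: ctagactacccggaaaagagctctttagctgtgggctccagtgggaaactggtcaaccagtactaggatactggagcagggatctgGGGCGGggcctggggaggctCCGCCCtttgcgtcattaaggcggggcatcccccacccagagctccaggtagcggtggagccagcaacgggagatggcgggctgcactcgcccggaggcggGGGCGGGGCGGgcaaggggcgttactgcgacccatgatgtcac

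The window of Lpcat1 held 1 match and that of Etnk2 held 4, and their shares of G and C were 57.9% and 65.2%. Promoter entries were matched for 31 of the 38 genes, and none was matched for Pcyt2, Ptdss1, Cdipt, Agpat6, Agpat5, Dgat1 and Dgat2. Over the 250 bases before each start, with both strands searched for 4 motifs of which none contains another, GGGCGG was present for 23 of these 31 genes, in 60% of their 45 windows and in 32.7% of all 32851 windows. The 32851 windows were not limited to genes tested here or matched for G and C, and what the difference reflects was not tested. CCAAT was present for 15 genes, in 37.8% of their windows and 33.9% of all. The letters CACGTG were found for 2 genes (Crls1 and Lpin2), in 4.44% of the windows of the members and 6.02% of all. TCACNCCAC was found for 1 gene, Pcyt1a, in 2 windows that overlap, and in 1.05% of all windows. None of the last 3 motifs was found in the printed windows of Lpcat1 and Etnk2.

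Levels of the 38 genes ran over a wide range. Averaged over all samples, 3 genes exceeded 100 FPKM, 24 lay between 10 and 100 FPKM and 11 were below 10 FPKM, and the median gene stood at 21.4 FPKM against 10.4 FPKM for all genes tested. Pcyt2 was the most abundant, at 337 FPKM, higher than 98.9% of the genes tested, followed by Agpat4 at 195 FPKM and Agpat3 at 115 FPKM. The ranges of these 3 genes over the samples did not overlap with each other or with that of the next gene, Cds2. Below them, neighbours in the order overlapped over the samples except Chpt1 over Agpat1, Cds1 over Lpin3 and Pemt over Agpat9. Agpat9 was the least abundant at 0.632 FPKM, with an estimated 27.0 reads in its lowest sample, whereas at least 54.0 reads lay behind every value of the other members.

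**Figure D3:**
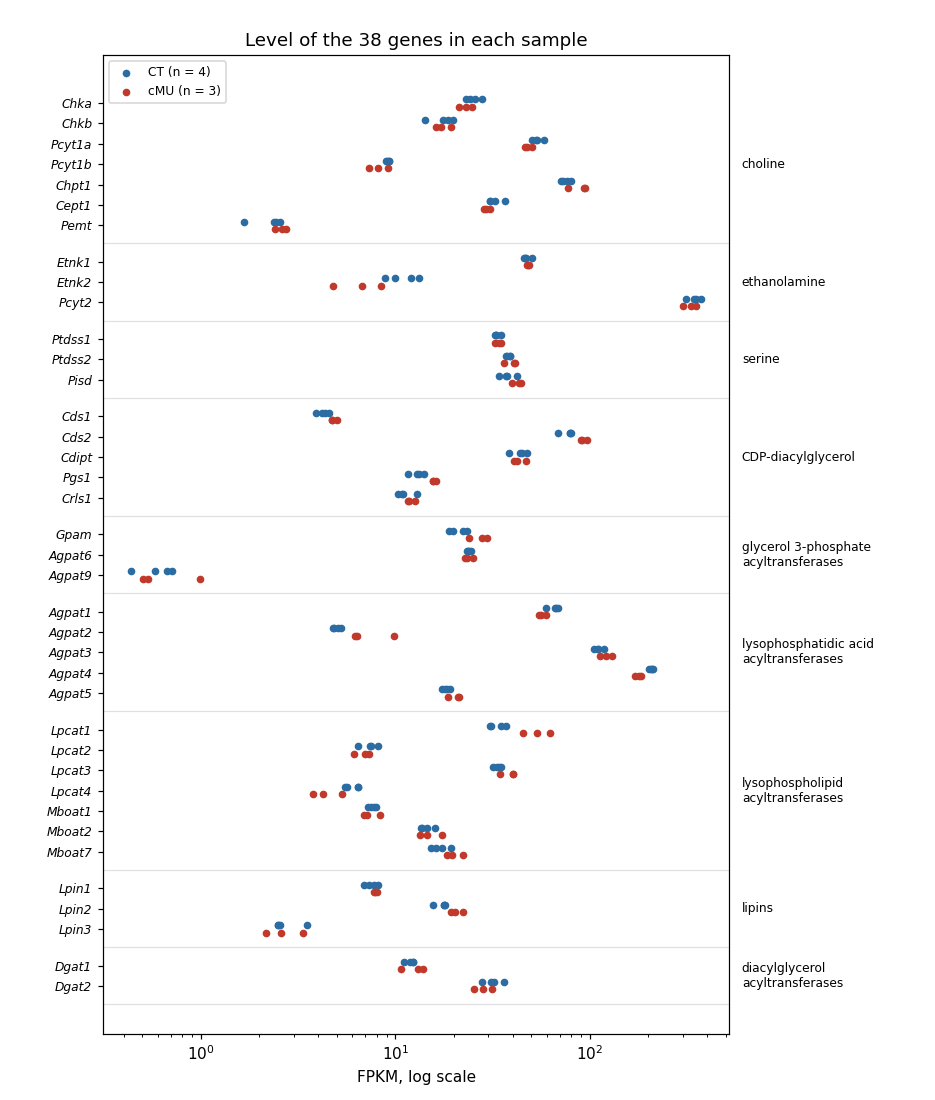
FPKM of each of the 38 genes in every sample on a log axis, grouped by branch, with the 4 CT samples in blue and the 3 cMU samples in red. Pcyt2, Agpat4 and Agpat3 lie above 100 FPKM in all samples and Agpat9 below 1 FPKM, and the colours separate for few genes.

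The pathway begins with glycerol 3-phosphate acyltransferases. Gpam, the enzyme of the outer mitochondrial membrane, was measured at 22.3, 18.9, 19.9 and 23.2 FPKM in CT and at 24, 27.9 and 29.4 FPKM in cMU. Every cMU sample was above the highest CT sample, cMU1 by less than 1 FPKM. The log2 fold change of Gpam was 0.36 ± 0.0969 (SE), which did not pass the threshold (adjusted p = 0.0816 by limma). Agpat6 (also GPAT4), an enzyme of the endoplasmic reticulum, had nearly equal means of 23.8 ± 0.472 FPKM in CT (SD, n = 4) and 23.8 ± 1.13 FPKM in cMU (SD, n = 3), with a 95% interval of the log2 fold change from -0.14 to 0.14. Gpam made up 43.7% to 49.2% of the summed FPKM of the 3 genes in CT and 48.4% to 55.7% in cMU, so that the shares overlapped between groups. Agpat9 (also GPAT3) contributed at most 1.90% in any sample.

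Lysophosphatidic acid acyltransferases add the next chain and form phosphatidic acid. Agpat4 was the most abundant of them, with 202, 209, 211 and 206 FPKM in CT and 179, 184 and 171 FPKM in cMU. The CT samples lay close together and all cMU samples were lower. The log2 fold change was -0.22 ± 0.0550 (SE), with an adjusted p of 0.0714 by limma. Agpat1 was lower as well by its mean (65.2 ± 4.08 FPKM in CT, 56.6 ± 2.66 FPKM in cMU, SD), but CT1 at 59.2 FPKM lay below cMU1 at 59.6 FPKM. Its log2 fold change was -0.20 ± 0.0678 (SE), with an adjusted p of 0.127 by limma.

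Agpat2, which is mutated in a human lipodystrophy, was at 4.84, 5.26, 4.80 and 5.04 FPKM in CT and at 9.78, 6.21 and 6.35 FPKM in cMU. All cMU samples were above all CT samples, and cMU1, the sample with the highest meningeal fibroblast markers, stood apart from the other cMU samples. The log2 fold change was 0.51 ± 0.148 (SE, adjusted p = 0.0940 by limma), and it was 0.31 without cMU1. Agpat2 shares its locus with Egfl7 on the opposite strand, at a mean of 21.7 FPKM, and whether strand was used in counting is not given in the sources used here. Agpat3 and Agpat5 were higher in cMU by their means, with overlap between groups and log2 fold changes of 0.13 and 0.14. Within the branch the summed FPKM was 406 ± 12.2 in CT and 384 ± 3.14 in cMU (SD), and the share of Agpat4 in that sum was 49.5% to 51.9% in CT and 44.4% to 47.6% in cMU, while Agpat3 made up 26.9% to 28.3% and 29.7% to 33.9%.

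Lipins remove the phosphate from phosphatidic acid. Lpin2 was the most abundant lipin, at 17.7, 15.5, 17.7 and 17.9 FPKM in CT and 20.2, 19.3 and 22.3 FPKM in cMU. The groups were separate, with CT2 below the other CT samples. The log2 fold change was 0.25 ± 0.0792 (SE), with an adjusted p of 0.107 by limma. Lpin1 stood at 7.50 ± 0.534 FPKM in CT and 7.89 ± 0.135 FPKM in cMU, and Lpin3, the least abundant, at 2.76 ± 0.511 and 2.70 ± 0.611 FPKM (SD). Both overlapped between groups.

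Diacylglycerol acyltransferases complete triglyceride. Dgat2 was the more abundant in every sample, with 27.9, 30.9, 32.1 and 36.3 FPKM in CT and 25.5, 31.3 and 28.1 FPKM in cMU. Its samples were intermixed, and the log2 fold change of -0.17 had a 95% interval from -0.39 to 0.06 (adjusted p = 0.342 by limma). Dgat1 was at 11.9 ± 0.630 FPKM in CT and 12.6 ± 1.64 FPKM in cMU (SD), again with overlap. Neither diacylglycerol acyltransferase gene passed the threshold or was separate between groups.

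CDP-diacylglycerol is the route to phosphatidylinositol and cardiolipin. Cds2, the main CDP-diacylglycerol synthase here, was at 78.6, 68.1, 79.0 and 80.2 FPKM in CT and at 90.5, 89.9 and 96.4 FPKM in cMU. All cMU samples were higher, and CT2 was the lowest of all. On the log2 scale the difference was 0.27 ± 0.0711 (SE), with an adjusted p of 0.0756 by limma. Its paralog Cds1 was far less abundant and also separate between groups, at 3.91, 4.32, 4.54 and 4.18 FPKM in CT and 4.71, 4.71 and 5 FPKM in cMU. The gap between the highest CT and the lowest cMU sample was small, and the log2 fold change of Cds1 was 0.16 ± 0.0882 (SE, adjusted p = 0.287 by limma).

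Pgs1, which makes the phosphatidylglycerophosphate that leads to cardiolipin, was at 11.7, 13, 13.2 and 14.1 FPKM in CT and at 16.2, 15.7 and 15.7 FPKM in cMU. The cMU samples were close together and above all CT samples. Pgs1 had a log2 fold change of 0.28 ± 0.0765 (SE), with an adjusted p of 0.0813 by limma. Crls1, the cardiolipin synthase that follows, was at 11.2 ± 1.14 FPKM in CT and 12 ± 0.501 FPKM in cMU (SD), and Cdipt, the phosphatidylinositol synthase, at 43.6 ± 3.90 and 43.3 ± 3.40 FPKM (SD). Both overlapped between groups. The median log2 fold change of this branch was 0.16, and its summed FPKM was 142 to 156 in CT and 165 to 170 in cMU.

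**Figure D4:**
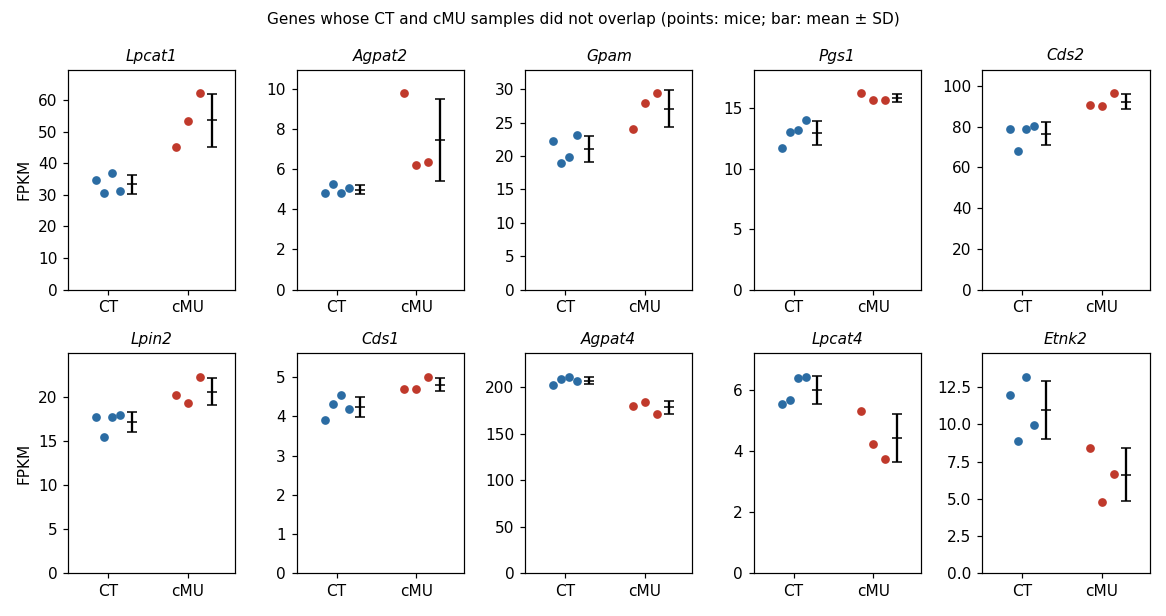
FPKM per mouse, with mean ± SD, of the 10 genes whose CT (n = 4) and cMU (n = 3) samples did not overlap, ordered by log2 fold change, with each vertical axis starting at 0. Lpcat1 to Cds1 are higher in cMU, and Agpat4, Lpcat4 and Etnk2 are lower.

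The choline branch leads to phosphatidylcholine. Chpt1, the cholinephosphotransferase of the last step, was the most abundant, with 79.7, 75.8, 70.7 and 72.8 FPKM in CT and 77.1, 93.2 and 94.4 FPKM in cMU. Samples cMU2 and cMU3 were above all others, whereas cMU1 lay within the CT range. For Chpt1 the log2 fold change was 0.23 ± 0.0830 (SE), with an adjusted p of 0.138 by limma. Pcyt1a, which sets the pace of CDP-choline formation from phosphocholine and CTP, was at 57.8, 50.2, 53.4 and 52.7 FPKM in CT and at 46.6, 50.3 and 47.7 FPKM in cMU. The groups overlapped by CT2 and cMU2 alone. Pcyt1a had a log2 fold change of -0.15 ± 0.0645 (SE), with an adjusted p of 0.197 by limma.

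Choline kinases phosphorylate choline at the start of the branch. Chka was at 24.1, 27.8, 25.6 and 23.2 FPKM in CT and 21.1, 24.6 and 23.2 FPKM in cMU, with overlap, and its log2 fold change of -0.13 had an adjusted p of 0.368 by limma. Cept1, which uses both CDP-choline and CDP-ethanolamine, was at 32.5 ± 2.72 FPKM in CT and 29.5 ± 1.10 FPKM in cMU (SD). Chkb, Pcyt1b and Cept1 had log2 fold changes of 0.01, -0.16 and -0.14, all with overlap between groups. Chkb shares its locus with Cpt1b on the same strand (6.62 FPKM) and Cept1 with Dram2 on the opposite strand (70.5 FPKM). Pemt, the methyltransferase that makes phosphatidylcholine from phosphatidylethanolamine mainly in liver, was the least abundant, at 2.25 ± 0.399 and 2.58 ± 0.164 FPKM (SD). Of the 7 genes, 3 had positive values, and the summed FPKM of the branch was 215 ± 5.69 in CT and 217 ± 12.7 in cMU (SD).

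The ethanolamine branch leads to phosphatidylethanolamine and to the plasmalogens of myelin. Pcyt2, which forms CDP-ethanolamine, was at 311, 345, 372 and 349 FPKM in CT and at 302, 351 and 333 FPKM in cMU. The samples were intermixed, and the log2 fold change of -0.07 had a 95% interval from -0.25 to 0.12 (adjusted p = 0.653 by limma). Ethanolamine is first phosphorylated by 1 of a pair of kinases. Etnk1 was at 50.6, 46.4, 47.0 and 46.1 FPKM in CT and at 48.1, 48.4 and 47.5 FPKM in cMU, well within the CT range, with a log2 fold change of 0.02 and a 95% interval from -0.11 to 0.14.

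Etnk2, the less abundant kinase, was at 12, 8.87, 13.2 and 9.94 FPKM in CT and at 8.40, 4.79 and 6.70 FPKM in cMU. Each cMU sample was below the lowest CT sample, though CT2 and cMU1 differed by less than 1 FPKM. On the log2 scale the difference was -0.70 ± 0.187 (SE), the most negative of the 38 genes, and did not pass the threshold (adjusted p = 0.0773 by limma). With the replicate number as a block it passed, with a log2 fold change of -0.74 and an adjusted p of 0.0251. In that fit CT4 has no partner and does not bear on the difference. Etnk2 also passed with normalized counts in place of FPKM (adjusted p = 0.0450 by limma, where 2.65% of all genes passed) and after quantile normalization (adjusted p = 0.0411, 3.04% of all genes), and left-out samples gave adjusted p values of 0.0531 to 0.176. Etnk2 made up 2.22% to 3.20% of the summed FPKM of the branch in CT and 1.18% to 2.34% in cMU, whereas Pcyt2 made up 83.3% or more in every sample.

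The serine branch exchanges head groups and decarboxylates phosphatidylserine. Ptdss1, which forms phosphatidylserine from phosphatidylcholine, was at 34.9, 32.8, 32.7 and 32.6 FPKM in CT and at 32.6, 34.7 and 34.1 FPKM in cMU. Its log2 fold change was 0.02, with a 95% interval from -0.11 to 0.15 (adjusted p = 0.848 by limma). Ptdss2, which uses phosphatidylethanolamine, was at 36.9, 39, 38.8 and 37.6 FPKM in CT and at 40.7, 36.2 and 41.4 FPKM in cMU, with a log2 fold change of 0.05 and a 95% interval from -0.10 to 0.19 (adjusted p = 0.689). The samples of Ptdss1 were intermixed, and the cMU samples of Ptdss2 lay on both sides of the CT samples. The small values of both changed sign with another scaling of the samples. Pisd, the mitochondrial decarboxylase that returns phosphatidylserine to phosphatidylethanolamine, was at 34.0, 37.6, 36.9 and 42.4 FPKM in CT and at 39.7, 42.9 and 44.3 FPKM in cMU. Sample CT4 lay among the cMU samples, and the log2 fold change of 0.17 had an adjusted p of 0.244 by limma. Ptdss1 shares its locus with Mterf3 on the opposite strand, at a mean of 17.2 FPKM.

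Lysophospholipid acyltransferases reacylate phospholipids that have lost a chain. Lpcat1, known for making disaturated phosphatidylcholine in lung surfactant, was at 34.7, 30.6, 36.8 and 31.1 FPKM in CT and at 45.2, 53.4 and 62.2 FPKM in cMU. The groups were far apart compared with the CT samples, and the cMU samples were more spread. Mean FPKM was 33.3 ± 2.97 in CT and 53.6 ± 8.50 in cMU (SD), 60.8% higher. Lpcat1 rose with a log2 fold change of 0.67 ± 0.111 (SE), the largest of the 38 genes, with a 95% interval from 0.42 to 0.92 and an adjusted p of 0.0272 by limma. The exact two-sided permutation p was 0.0571, the smallest that 4 against 3 samples allow.

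Leaving out single samples moved the adjusted p of Lpcat1 across the threshold in some fits. Without CT1, CT2, CT3, CT4 or cMU3 the adjusted p was between 0.0595 and 0.0842, and without cMU1 or cMU2 it was 0.0173 and 0.0361. In the fits without CT1, CT2, CT3, CT4 or cMU3, 0.0434% to 0.863% of all genes passed, against 2.62% with all samples. Without cMU1 and without cMU2, 1.39% and 6.58% passed. The log2 fold change stayed between 0.56 and 0.79 in these fits. With the replicate number as a block it was 0.64, with an adjusted p of 0.0251. The threshold was missed with no filter on low values (0.0704, where 0.492% of all genes passed) and with no variance trend (0.0561, where 0.411% passed). Astrocyte markers were summed to 3235 to 3645 FPKM in CT and to 4066, 5012 and 4949 FPKM in cMU1, cMU2 and cMU3, and their part in the rise of Lpcat1 was not tested, nor was that of the neuron markers of cMU3, the sample with the highest Lpcat1.

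Lpcat4, which acts on lysophosphatidylethanolamine among others, was at 5.53, 5.65, 6.38 and 6.42 FPKM in CT and at 5.30, 4.24 and 3.75 FPKM in cMU. The cMU samples were lower without overlap, cMU1 by a small gap. Lpcat4 had a log2 fold change of -0.41 ± 0.121 (SE), with an adjusted p of 0.0983 by limma. Lpcat3, which places polyunsaturated chains in phosphatidylcholine, was at 33.9, 31.6, 33.2 and 34.9 FPKM in CT and at 40.3, 40.0 and 34.6 FPKM in cMU, with overlap by cMU3 and a log2 fold change of 0.19 ± 0.0723 (SE, adjusted p = 0.15 by limma). Mboat7, which places arachidonate in phosphatidylinositol, was at 15.3, 16.2, 17.4 and 19.3 FPKM in CT and at 19.6, 18.3 and 22.2 FPKM in cMU, with overlap by CT4 and cMU2 and a log2 fold change of 0.23 ± 0.0971 (SE, adjusted p = 0.185 by limma). Lpcat3 and Mboat7 overlap Emg1 (18.6 FPKM) and Tsen34 (45.3 FPKM) on the opposite strand.

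Lpcat2, Mboat1 and Mboat2 overlapped between groups, with log2 fold changes of -0.11, -0.03 and 0.05. Lpcat1 made up 28.8%, 27.5%, 29.8% and 25.7% of their summed FPKM in CT and 33.0%, 36.6% and 40.3% in cMU. The share of Lpcat4 was 4.58% to 5.31% in CT and 2.43% to 3.86% in cMU. Summed FPKM of the 7 genes was 119 ± 5.29 in CT and 146 ± 8.58 in cMU (SD), 122% of the CT mean, with Lpcat1 as the member that contributed most, so that a gene at equal FPKM takes a smaller share in cMU.

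**Figure D5:**
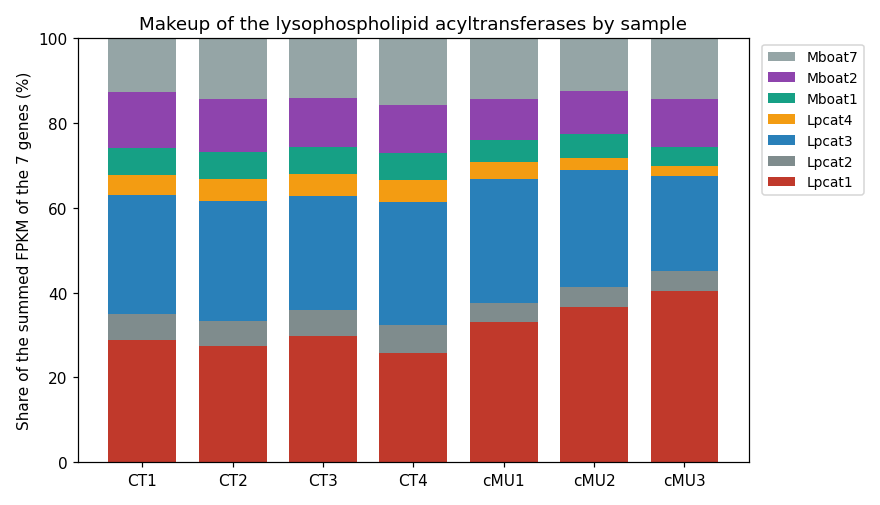
Share of each of the 7 lysophospholipid acyltransferases in their summed FPKM, by sample, in percent. The segment of Lpcat1 takes 25.7% to 29.8% in CT1 to CT4 and 33.0% to 40.3% in cMU1 to cMU3.

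Among the branches, median log2 fold changes were 0.16 for CDP-diacylglycerol, 0.13 for lysophosphatidic acid acyltransferases, 0.08 for glycerol 3-phosphate acyltransferases, 0.07 for lipins, 0.05 for both serine and lysophospholipid acyltransferases, -0.05 for diacylglycerol acyltransferases, -0.07 for ethanolamine and -0.13 for choline. All genes had a median of 0.05, and no test was made on a branch. The order of the branches depended on single samples and settings: the glycerol 3-phosphate median was 0.012 without CT3 or without cMU2 and 0.19 without cMU3, and the ethanolamine median was -0.0061 without cMU1 and -0.12 without cMU2. The 23 members with neither an unadjusted p under 0.05 nor separate groups had log2 fold changes from -0.17 to 0.18, 13 of them positive, with adjusted p values of at least 0.241.

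Genes around the pathway were taken from lists of precursor supply, breakdown and lipid droplets, in which some genes stand under both an older and a newer symbol. Of the precursor list, 27 of 30 symbols had a row, 23 were tested and 2 passed (8.70%, against 2.62% of all genes), both lower. With the replicate number as a block, the same 2 passed (8.70%, against 8.36% of all genes, 6.42% higher and 1.94% lower). Ctps, which makes the CTP used in CDP-choline and CDP-ethanolamine formation, was at 43.2, 52.0, 43.7 and 40.2 FPKM in CT and at 26.3, 25.4 and 28.7 FPKM in cMU. The groups were far apart. Ctps fell, with a log2 fold change of -0.72 ± 0.0914 (SE) and an adjusted p of 0.0152 by limma. It missed the threshold without CT3 (0.0717) or without cMU3 (0.0612). Ctps2, on the same list, went the other way, at 6.70 to 7.63 FPKM in CT and 8.24 to 9.37 FPKM in cMU. Its log2 fold change of 0.26 ± 0.0830 (SE) did not pass the threshold. Slc27a4, a fatty acid transport protein with acyl-CoA synthetase activity, fell from 34.5 to 27.8 FPKM by its means, with a log2 fold change of -0.31 ± 0.0581 (SE, adjusted p = 0.0369 by limma). Leaving out any sample except cMU2 raised its adjusted p above 0.05, to between 0.0566 and 0.126, and it was 0.0727 with no variance trend.

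Of the breakdown list, 37 of 40 symbols had a row, 36 were tested and 1 passed (2.78%). Ppap2b, a phosphatase of lysophosphatidic and phosphatidic acid, was at 82.5, 70.8, 82.1 and 83.5 FPKM in CT and at 116, 95.3 and 107 FPKM in cMU. All cMU samples were higher. Ppap2b rose, with a log2 fold change of 0.41 ± 0.0861 (SE) and an adjusted p of 0.0472 by limma, which held without cMU2 (0.0298) and was 0.0727 to 0.126 without any other sample. It was also missed with no filter (0.0971), no variance trend (0.0816) and normalized counts (0.0505). With the replicate number as a block, 4 genes of the list passed (11.1%, against 8.36% of all genes). None of the 9 lipid droplet genes tested passed by limma, and none was separate between groups. At an unadjusted p under 0.05 there was 1 of 9 (11.1%, against 24.4% of all genes). A positive log2 fold change was found for 8 of 9 (88.9%, against 60.1% of all genes), with a median of 0.20. Summed FPKM of the 13 genes with a row was 133% of the CT mean in cMU1, 99.0% in cMU2 and 114% in cMU3, and 96.3% to 107% in CT.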

How the data were processed

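RNA from P14 optic nerves of 4 CT and 3 cMU mice went into stranded poly-A libraries, read from 1 end. Per the labels, the authors used STAR 2.5.1b, RSEM 1.2.22 and edgeR with GRCm38. They deposited 1 table with, for each sample, a normalized count (a signal made from the RSEM estimate and a size factor) and an FPKM value. Its fold changes, p-values and FDR were not used.

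Only 75.8% to 80.6% of low normalized counts were whole multiples of the value of 1 read (within 0.05), so no count test was run. That value gave the estimated depth. The test was limma 3.58.1 (R 4.3.3) with a variance trend on log2(FPKM + 0.5), for genes with at least 0.5 FPKM in at least 3 samples. Genotype was its single covariate, p-values of 13866 genes were adjusted by Benjamini-Hochberg, and 0.05 was the threshold. Exact permutation tests cannot give a p below 0.0571. The fit was also run on simulated data with independent noise of equal spread in all samples. Those data do not cover samples that deviate together or differ in precision. Tables and figures were made in Python 3.11.15.

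The members and lists were chosen with earlier results of these data known. Named genes were Fasn, every member past the threshold or with separate groups, the most and least abundant member of each branch, and genes of the related lists past the threshold. Other members, markers and Ctps2 were named after their values were seen. After subtraction of the group means, the 3 pairs of same-numbered samples correlated across genes with r of 0.168 to 0.409. Differently numbered samples did so with -0.353 to 0.205, and cMU1 correlated more with CT4 (0.205) than with CT1 (0.168). A second fit was therefore blocked on the replicate number, though the numbers do not pair cMU1 with its closest CT sample. What the numbers stand for is not given in the sources used here. Alternatives covered pseudocounts, filters, scalings, normalized counts, variance settings and left-out samples.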

Additional observations from a re-analysis of the deposited data

Results flagged for a closer look

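In 4 of the 39 genes checked (the 38 members and Fasn), 1 CT sample stood apart from the other 3, by a gap above the critical share of the range for 4 samples. Chance flags about 1 in 20 such groups. For Ptdss1, CT1 at 34.9 FPKM stood above 32.6 to 32.8 FPKM, with a gap of 0.894 of the range. For Cds2, CT2 at 68.1 FPKM stood below 78.6 to 80.2 FPKM, with a gap of 0.867. For Lpin2, CT2 at 15.5 FPKM stood below 17.7 to 17.9 FPKM, with a gap of 0.893. For Lpin3, CT4 at 3.53 FPKM stood above 2.48 to 2.55 FPKM, with a gap of 0.934. The check was not run on the 3 cMU samples.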

How the results depend on the processing

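Of 765 repeats of the results under another setting, 649 kept the direction and side of the threshold or stayed close to the reported value. The repeats reuse the same samples, and a gene not called at first counts as kept if it stayed uncalled with the same sign. Causes of the changes were not tested, except that fewer samples make separate groups easier to reach. Genes past the threshold numbered 95 with no filter, 57 with no variance trend, 1525 with array weights, 1159 with the replicate block and 6 to 909 with 1 sample left out. Members past it numbered 0 with no filter (0.492% of all genes), 0 with no trend (0.411%) and 2 after quantile normalization (3.04%). They numbered 2 with normalized counts (2.65%), 11 with array weights (11.0%), 2 with the replicate block (8.36%) and 0 to 1 with 1 sample left out (0.0434% to 6.58%). Members at an unadjusted p under 0.05 numbered 9 to 14 (18.2% to 28.1% of all genes) and those with separate groups 10 to 19 (24.3% to 37.3% of all genes) with 1 sample left out. Etnk2 was the member whose call the replicate block changed, and the block changed no other call of a member. Log2 fold changes reversed for Ptdss1 (-0.023, -0.022 and -0.055) and Etnk1 (-0.029, -0.015 and -0.061) with median ratio scaling, quantile normalization and normalized counts, and for Ptdss2 (-0.030) with normalized counts. Over all settings, 26 of the 38 members kept 1 sign, and 12 with small differences changed it at least once (Agpat6, Agpat9, Cdipt, Chkb, Dgat1, Etnk1, Lpin1, Lpin3, Mboat1, Mboat2, Ptdss1 and Ptdss2). The median of the choline branch moved to -0.21 with normalized counts. That of the serine branch was 0.0021 with median ratio scaling, 0.0085 after quantile normalization, -0.030 with normalized counts, and 0.015 to 0.11 with 1 sample left out. The median of CDP-diacylglycerol genes was 0.062 after quantile normalization, that of lysophosphatidic acid acyltransferases 0.052 with normalized counts, that of lysophospholipid acyltransferases -0.026 with normalized counts, 0.13 with array weights and 0.023 to 0.13 with 1 sample left out, and that of lipins -0.016 after quantile normalization. With 1 sample left out, the median was 0.012 to 0.19 for glycerol 3-phosphate acyltransferases, -0.12 to -0.0061 for ethanolamine, 0.034 to 0.11 for lipins, -0.095 to -0.016 for diacylglycerol acyltransferases, 0.078 to 0.18 for lysophosphatidic acid acyltransferases and 0.13 to 0.19 for CDP-diacylglycerol.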
